A study of Mus musculus with 4 samples.

Results

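SOX transcription factors are a family of DNA-binding proteins named after Sry, the sex-determining gene of the Y chromosome, and each carries an HMG box, a domain that fits into the minor groove of DNA and bends it. The family is divided into groups by the similarity of this box. Group C (Sox4, Sox11, Sox12) is known for activating genes in progenitor cells of the nervous system, heart and kidney, and group D (Sox5, Sox6, Sox13) has no activation domain of its own and works as pairs of proteins that help or hinder other factors. Group E includes Sox9, which drives cartilage and male gonad formation and is switched on in injured kidney tubules, and group F (Sox7, Sox17, Sox18) acts in vascular endothelium.

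The 9 genes described here are Sox4, Sox5, Sox6, Sox7, Sox9, Sox11, Sox12, Sox13 and Sox18, found by gene name among the 54532 genes of the count table. The family was picked for the fall of Sox5 after IL-12 treatment, so the members were selected on the same comparison that is described below. Sox5 is therefore given by its values with no test, and nothing is read from the number of members that changed. The table lists 20 SOX genes in all, and the 11 that are not members are given by their counts.

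RNA-sequencing was done on MPC5, a mouse podocyte cell line, which the paper describes as conditionally immortalized and differentiated before treatment by withdrawal of interferon-γ and a rise in temperature. The control group (2 libraries) received saline, and the IL-12 treatment group (2 libraries) received IL-12 for 6 h. No source says that replicate libraries were grown as separate cultures, so the p-values may measure technical spread only. Total counts were 18355379 to 20098012 per library. In each library 3 counts correspond to 0.149 to 0.163 CPM (counts scaled to the library total), the smallest level treated as detectable, which covers counting error only.

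The labelled cell type was compared with its markers. Of 18 podocyte markers, 10 were high enough to be tested, and among these Actn4 and Podxl were higher and Synpo, Plce1 and Clic5 lower in the IL-12 treatment group. The summed level of the list was 2840 to 2920 CPM over the 4 libraries, with Actn4 and Kirrel the most abundant, but Nphs1, the gene of nephrin, which defines the slit diaphragm, had 1 count over all 4 libraries, and Ptpro, Tcf21 and Trpc6 had 0. Wt1 had 4 and 16 counts in the control group and 4 and 8 in the IL-12 treatment group. Of 9 tubule and parietal epithelium markers, Lrp2, Pax2, Pax8 and Cdh16 were abundant, and the summed level of the list was 1250 and 1210 CPM in the control group and 921 and 959 CPM in the IL-12 treatment group. Those 4 genes, of 5 tested, were lower, with log2 fold changes of -0.27, -0.51, -0.37 and -0.75, as were Sox4 and Sox6 below. Of all genes tested, 14.4% were lower at an adjusted p below 0.05 in edgeR's quasi-likelihood test. Slc34a1 and Umod, which define segments of the tubule, had 0 counts. The part of these markers in the results was not tested. The 10 endothelial markers were each under 1 CPM in every library. The leukocyte list of 8 genes summed to 5.46 to 7.9 CPM, and the mesangial and stromal list of 8 genes to 69.9 to 82 CPM, with Pdgfrb higher and Gata3 lower after IL-12. In bulk RNA, fewer cells of a type and less RNA per cell cannot be told apart.

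The members resemble each other most in the HMG box, which is where reads of one gene could be counted for another. A stretch of 60 coding bases from the start of the box is shown for the members, taken from the longest complete coding sequence of each gene in GENCODE release M21 (GRCm38), with the bases that differ from Sox5 in capitals. It is shown because group D, the group of Sox5, stands apart from the other groups in it.

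Sox5: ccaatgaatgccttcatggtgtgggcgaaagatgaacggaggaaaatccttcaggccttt
Sox6: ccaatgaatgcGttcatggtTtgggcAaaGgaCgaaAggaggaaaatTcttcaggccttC
Sox13: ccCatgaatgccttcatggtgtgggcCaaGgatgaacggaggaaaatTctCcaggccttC
Sox4: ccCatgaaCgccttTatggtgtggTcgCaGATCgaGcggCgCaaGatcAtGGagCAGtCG
Sox11: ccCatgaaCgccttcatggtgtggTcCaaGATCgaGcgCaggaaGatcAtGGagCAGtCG
Sox12: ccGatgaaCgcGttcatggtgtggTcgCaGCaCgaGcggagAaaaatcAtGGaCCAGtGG
Sox9: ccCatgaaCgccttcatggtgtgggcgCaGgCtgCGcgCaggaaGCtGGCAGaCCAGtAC
Sox7: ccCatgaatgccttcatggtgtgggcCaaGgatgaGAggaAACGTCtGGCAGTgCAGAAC
Sox18: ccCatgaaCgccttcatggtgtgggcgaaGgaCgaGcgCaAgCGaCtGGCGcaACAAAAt

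In this stretch Sox13 and Sox6 differed from Sox5 at 6 and 8 of the 60 bases. The members of the other groups differed from it at 19 to 23 bases. Across whole coding sequences, the longest run of bases that 2 members shared without a mismatch was 48 bases, between Sox4 and Sox11. It starts inside the stretch above, at base 226 of the Sox4 coding sequence and base 196 of that of Sox11, and runs on past its end.

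Run shared by Sox4 and Sox11: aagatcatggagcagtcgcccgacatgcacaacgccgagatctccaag

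The next longest runs were 35 bases for Sox7 with Sox13 and 33 for Sox4 with Sox12, and the other pairs shared 11 to 27 bases. For Sox5 and Sox6 the longest run was 17 bases. It lay before the stretch shown, starting at base 967 of the Sox5 coding sequence and base 937 of that of Sox6. Bases outside the coding sequences were not compared. Read length and the treatment of reads that match several genes are not given in the sources used here.

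The gene models of the members differ widely in size. Sox5 (ENSMUSG00000041540) covers 954 kb of chromosome 6 from 143828425 to 144781977 on the minus strand, with 14 annotated transcripts. Sox6 (ENSMUSG00000051910) covers 568 kb of chromosome 7 from 115470872 to 116038796 on the minus strand, with 16 transcripts. Sox4 (chromosome 13, 28948919 to 28953713, minus strand) and Sox11 (chromosome 12, 27334264 to 27342574, minus strand) each have 1 transcript of 1 exon. Sox12 lies on chromosome 2 from 152393611 to 152398063, Sox13 on chromosome 1 from 133382303 to 133424377 and Sox9 on chromosome 11 from 112782224 to 112787760. Genes overlap 3 of the members in the deposited coordinates. Sox5 overlaps 7 of them, Sox6 2 and Sox4 1, and all of these had 0 counts in the 4 libraries, including the antisense genes Sox5os1 to Sox5os5 and Sox6os.

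Of the 9 members, 7 had enough counts to be tested and 2 did not. Sox7 had 0 counts in every library and Sox18 had 1 count, in IL-12 replicate 1, so both were under the detectable level in every library. Both belong to group F, and Sox17, the remaining gene of that group, also had 0 counts.

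Levels of the genes were compared per length, on the deposited FPKM scale. Sox4 was the most abundant, with 50.2 ± 0.616 FPKM (SD, n = 2) in the control group, above 92.9% of all genes tested. Sox11 followed with 9.54 ± 0.68 FPKM and Sox12 with 7.05 ± 0.288 FPKM, so the 3 genes of group C came first. Sox9 had 1.25 ± 0.24 FPKM and Sox6 0.962 ± 0.127 FPKM. Sox13 and Sox5 were lowest, with 0.16 ± 0.0873 and 0.144 ± 0.0162 FPKM, and their control libraries overlapped. Each other pair of neighbouring members in this order had control libraries that did not overlap. The length that the table gives for Sox5 (14376 bases) and Sox6 (14832 bases) exceeds that of their longest annotated transcripts (7243 and 8668 bases), so their FPKM values are lower than a count per transcript length would give. The places of Sox5 below Sox13 and of Sox6 below Sox9 in this order therefore depend on the length used.

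In the IL-12 treatment group the order from Sox4 to Sox9 was the same, with 40.3 ± 0.839 FPKM for Sox4, 12.1 ± 0.00863 for Sox11, 6.36 ± 0.0162 for Sox12 and 1.55 ± 0.179 for Sox9. Sox6 had 0.357 ± 0.0175 FPKM, Sox13 0.153 ± 0.00102 and Sox5 0.0335 ± 0.0125, and the Sox5 libraries no longer overlapped those of Sox13. Sox4 made up 71.6% and 70.2% of the summed FPKM of all SOX genes in the control libraries against 64.4% and 63.3% in the IL-12 libraries. The share of Sox11 was 13% and 13.9% in the control libraries against 19% and 19.2% in the IL-12 libraries. Group C as a whole therefore held most of the SOX transcripts in every library.

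**Figure D1:**
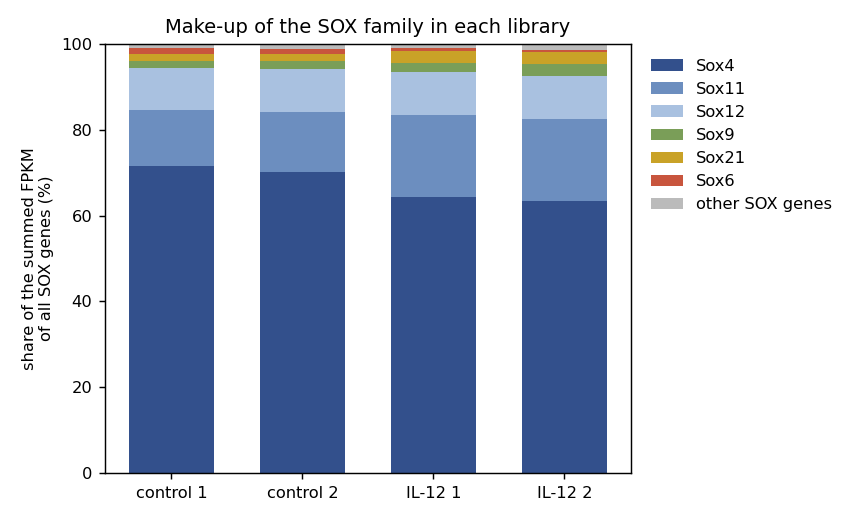
Share of each SOX gene in the summed FPKM of all SOX genes (vertical axis, %) in each of the 4 libraries (horizontal axis), with stacked colours for 6 genes and grey for the others. Sox4 takes 70.2% or more of the sum in the control libraries and 64.4% or less in the IL-12 libraries, and Sox11 takes 19% or more in the IL-12 libraries.

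The comparison between the groups was made on counts with edgeR's quasi-likelihood test over the 14095 genes that passed the filter, and CPM values below are scaled by the TMM factors. Of all genes tested, 16.1% were higher and 14.4% were lower in the IL-12 treatment group at an adjusted p below 0.05, and 1.61% also passed the 2-fold limit that the study used for its screening. The groups did not overlap in either direction for 62.9% of the genes. Beside these values, of the 6 tested members other than Sox5, 1 was higher (Sox11) and 2 were lower (Sox4 and Sox6), and the groups did not overlap for 4 (these and Sox12). Only Sox6 of the 6 passed the 2-fold limit. The median log2 fold change was -0.10 over the 6 members and 0.00 over all genes tested.

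In group D, Sox5 had 36 and 42 counts in the control libraries against 7 and 11 in the IL-12 libraries. In CPM these are 1.9 and 2.23 in the control group and 0.354 and 0.608 in the IL-12 treatment group. Both IL-12 libraries were low, by counts that leave a wide error, and the groups did not overlap. The log2 fold change was -2.10 (SE, the standard error, 0.40), which put Sox5 at place 13 from the bottom of the 14095 genes ordered by it, as a description of the value it was picked for.

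Sox6, the closest relative of Sox5 in function in cartilage, where either can largely stand in for the other, had 296 and 244 counts in the control libraries against 101 and 99 in the IL-12 libraries. These are 15.6 and 12.9 CPM against 5.11 and 5.47 CPM. Every IL-12 library was below every control library, and its larger counts carry less counting error than those of Sox5. Mean Sox6 was 14.3 ± 1.91 CPM in the control group and 5.29 ± 0.259 CPM in the IL-12 treatment group (SD, n = 2 each), or 2.7-fold lower. On the log2 scale it fell by 1.43 (SE 0.14), at an edgeR adjusted p of 2.72e-07. Counted per length, Sox6 transcripts outnumbered those of Sox5 by 7.97-fold and 5.63-fold in the control libraries, against 14-fold and 8.72-fold in the IL-12 libraries.

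Sox13, the other gene of group D, is expressed in T cells and arterial walls among other tissues. It had 8 and 18 counts in the control libraries against 13 and 12 in the IL-12 libraries, and both IL-12 values lay between the control values. On the log2 scale the difference was -0.06 (SE 0.49, edgeR adjusted p = 0.948). With so few counts the error is wide, and no difference was detectable at this depth.

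**Figure D2:**
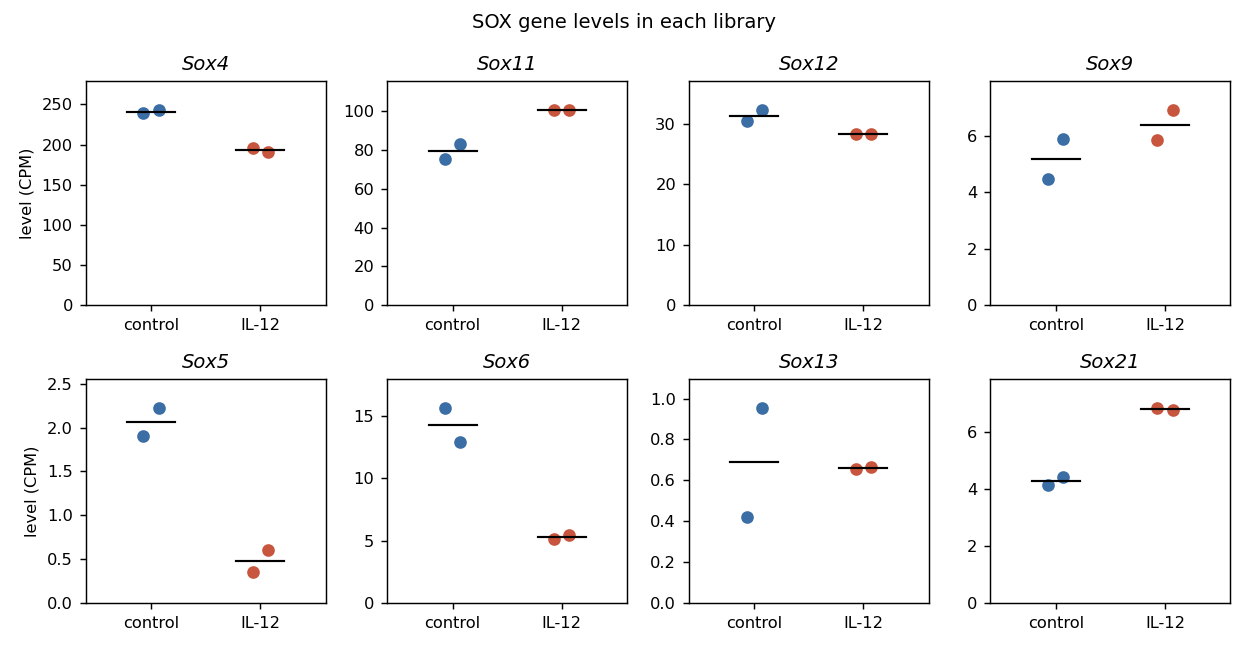
Level in CPM (vertical axis, from 0, with its own scale in each panel) of 7 members and Sox21 in the control and IL-12 treatment groups. Points are libraries and lines are means of 2 libraries. Sox5 and Sox6 are lower in both IL-12 libraries, Sox4 is lower by a smaller fraction, Sox11 and Sox21 are higher, and the groups overlap for Sox9 and Sox13.

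In group C, Sox4, a factor needed for heart, lymphocyte and nephron development and a known target of TGF-β, had 4528 and 4582 counts in the control libraries against 3880 and 3445 in the IL-12 libraries. The levels were 239 and 243 CPM against 196 and 190 CPM. Both IL-12 libraries were below both control libraries, by much more than the replicates of a group differed. Sox4 was 1.25-fold lower, by -0.32 on the log2 scale (SE 0.04, edgeR adjusted p = 1.95e-06).

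Sox11, which acts beside Sox4 in neurons and in organ development, went the other way. It had 1427 and 1570 counts in the control libraries against 1988 and 1816 in the IL-12 libraries, or 75.3 and 83.2 CPM against 100.5 and 100.4 CPM. The lower IL-12 library exceeded the higher control library by more than the control libraries differed from each other. Sox11 was 1.27-fold higher, by 0.34 on the log2 scale (SE 0.05, edgeR adjusted p = 5.11e-05). The ratio of Sox4 to Sox11 per length was 5.5 and 5.06 in the control libraries against 3.38 and 3.29 in the IL-12 libraries. These 2 genes share the 48-base run printed above, and their counts moved in opposite directions. The part of shared reads in either value was not tested.

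Sox12, the third gene of the group and a weaker activator than the others, had 578 and 609 counts in the control libraries against 559 and 513 in the IL-12 libraries. The levels were 30.5 and 32.3 CPM against 28.3 and 28.4 CPM, so the groups did not overlap, as for 62.9% of all genes. Its log2 difference of -0.15 (SE 0.07) did not pass the test (edgeR adjusted p = 0.144).

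In group E, Sox9 had 85 and 111 counts in the control libraries against 116 and 125 in the IL-12 libraries. The levels were 4.49 and 5.88 CPM against 5.86 and 6.91 CPM. The lower IL-12 library lay just below the higher control library, so the groups overlapped, and the log2 difference of 0.30 (SE 0.17) did not pass the test (edgeR adjusted p = 0.222).

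**Figure D3:**
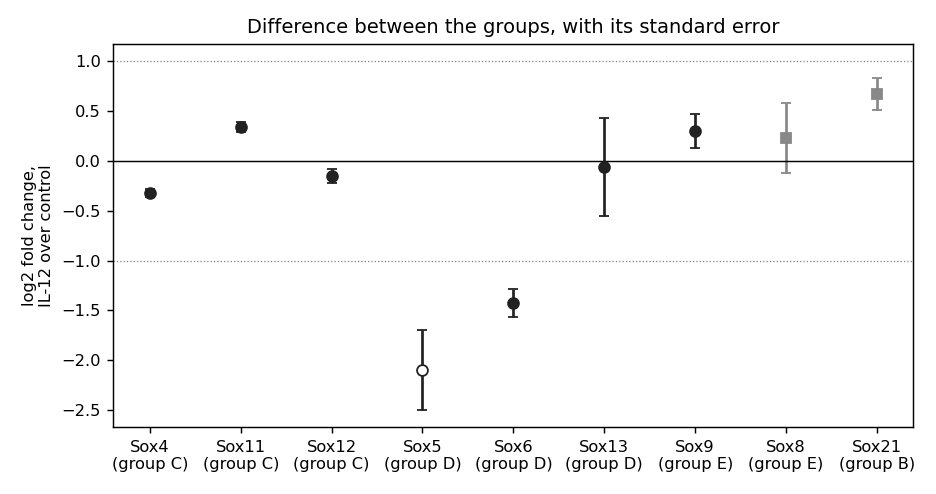
Log2 fold change of the IL-12 treatment group over the control group (vertical axis) for the 7 tested members (circles) and 2 other SOX genes (grey squares), ordered by group, with standard errors as bars and dotted lines at 2-fold. The open circle is Sox5, for whose value the family was picked. Sox6, at -1.43, is the other gene beyond a dotted line, and the remaining genes lie between -0.32 and 0.67.

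Among the SOX genes that are not members, 2 were tested and 9 were not. Sox21, a repressor of group B, had 78 and 83 counts in the control libraries against 135 and 122 in the IL-12 libraries. Its level was 4.12 and 4.4 CPM against 6.82 and 6.74 CPM, with no overlap between the groups. The log2 difference was 0.67 (SE 0.16, edgeR adjusted p = 0.00391). DESeq2 gave an adjusted p of 0.0493 with and 0.0578 without independent filtering, so the call depended on that setting. Sox8, the relative of Sox9 in group E, had 19 and 27 counts against 24 and 30, and it did not pass the test (edgeR adjusted p = 0.682). Sox15 had 3 counts in all, and Sry, Sox1, Sox2, Sox3, Sox10, Sox14, Sox17 and Sox30 had 0. In total 9 SOX genes had 0 counts in every library, Sox7 among them.

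**Figure D4:**
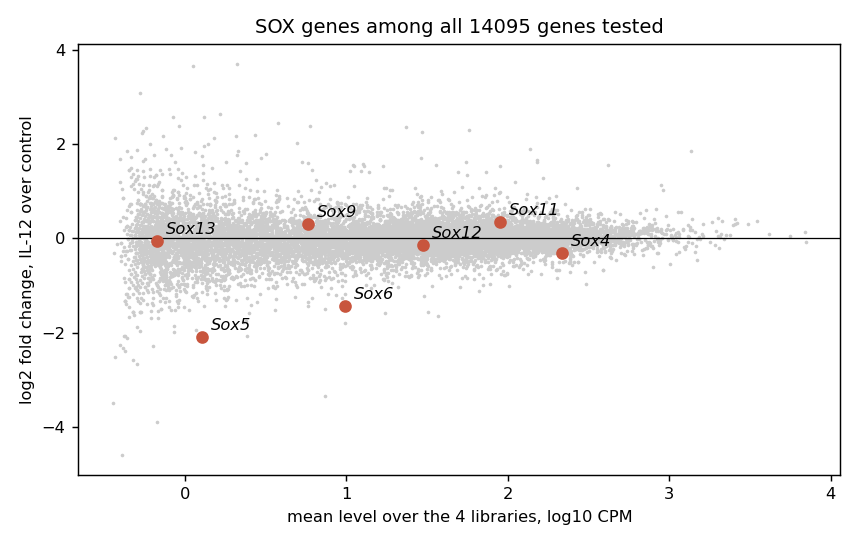
Log2 fold change of the IL-12 treatment group over the control group (vertical axis) against the mean level over the 4 libraries in log10 CPM (horizontal axis) for all 14095 genes tested (grey), with the 7 tested members in colour. Sox5 and Sox6 lie at the lower edge of the cloud at their levels, and the other 5 members lie within it.

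The 3 genes whose levels over the 4 libraries most resembled those of Sox5 were Sult1c2, Tmem72 and Gm18760, by the distance between log2 CPM values centred on each gene's mean (0.335, 0.377 and 0.378). These 4 libraries hold a single contrast, so likeness here is mostly a fall of similar size. Sult1c2, a sulfotransferase gene, had 78 and 70 counts in the control libraries against 16 and 19 in the IL-12 libraries. Tmem72 had 14 and 13 counts against 1 and 4 and Gm18760 14 and 12 against 2 and 3. Gm18760 lies within Chdh on the opposite strand, which had 2410 counts over the 4 libraries against its own 31, so its counts are uncertain. Sox6 was at place 33 of 14094 by the same distance (0.722).

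The RefSeq promoters of the members (GRCm38.p6, 250 bases before and 50 after a start) were searched on both strands for the SOX core ACAAT, the TEAD motif GGAATG and the AP-1 motif TGANTCA. Entries were found for 6 of the 7 tested members, without Sox9. Among the promoters of all 27025 genes in the table, taking the entry farthest upstream of each, 31.5% held ACAAT, 14.7% held GGAATG and 7.92% held TGANTCA. The TEAD motif was present in the entries of Sox4, Sox5 and Sox6 that lie farthest upstream, and no entry of Sox11, Sox12 or Sox13 held any of the 3 motifs. Of the 5 other Sox6 entries, 3 held the SOX core and 1 the TEAD motif. Bases G and C made up 52%, 39.7% and 47% of the farthest upstream entries of Sox4, Sox5 and Sox6. They made up 58.7%, 76.7% and 73.3% of those of Sox11, Sox12 and Sox13. The part of base composition in the matches was not tested. The promoters of the 3 genes with lower levels in the IL-12 libraries are shown with the matches in capitals, none of which overlap. The only Sox5 entry lies inside the gene, far from its annotated 5′ end.

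Sox6, chr7:116038695-116038994, minus strand: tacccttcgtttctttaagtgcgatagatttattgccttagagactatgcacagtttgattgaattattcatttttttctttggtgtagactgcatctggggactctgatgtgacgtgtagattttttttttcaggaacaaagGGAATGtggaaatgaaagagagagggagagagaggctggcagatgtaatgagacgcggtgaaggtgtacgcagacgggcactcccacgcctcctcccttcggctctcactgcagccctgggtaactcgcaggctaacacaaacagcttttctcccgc
Sox4, chr13:28953650-28953949, minus strand: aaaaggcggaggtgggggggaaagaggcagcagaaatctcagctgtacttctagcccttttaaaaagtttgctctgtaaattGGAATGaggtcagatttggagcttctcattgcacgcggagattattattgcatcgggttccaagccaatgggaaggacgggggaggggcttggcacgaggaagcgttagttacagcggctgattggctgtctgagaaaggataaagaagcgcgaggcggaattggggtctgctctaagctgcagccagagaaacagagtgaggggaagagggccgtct
Sox5, chr6:143947057-143947356, minus strand: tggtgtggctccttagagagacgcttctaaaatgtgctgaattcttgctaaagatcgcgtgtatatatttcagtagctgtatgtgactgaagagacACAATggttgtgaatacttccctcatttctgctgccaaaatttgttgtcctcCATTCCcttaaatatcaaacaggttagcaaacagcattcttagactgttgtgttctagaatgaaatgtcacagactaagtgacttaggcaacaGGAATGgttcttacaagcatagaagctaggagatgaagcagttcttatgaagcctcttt

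In Sox6 the capitals mark 1 TEAD match, in Sox4 1 TEAD match, and in Sox5 1 SOX core match followed by 2 TEAD matches. These are matches of letters, and binding was not measured.

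Genes that SOX proteins are known to act on or with were then examined in lists that were drawn up with earlier results of these data known. Over all genes tested, 16.1% were higher and 14.4% were lower. In the list of cartilage genes controlled by Sox9 with Sox5 and Sox6, 5 of 17 genes were tested (Col2a1, Wwp2, Col9a3, Col11a2 and Chad), and 0 passed edgeR's quasi-likelihood test, with 0 at an unadjusted p below 0.05 and 0 called by DESeq2. The median log2 fold change was -0.03. Of the 12 others, 6 had 0 counts, among them Acan, the gene of aggrecan. Col2a1, the classical target, had 32 and 24 counts in the control libraries against 21 and 26 in the IL-12 libraries.

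Of 4 reported targets of group C, 3 were tested, and Tead2, a partner of YAP, passed. Its means were 167 ± 1.27 CPM for the control and 152 ± 1.27 CPM for the IL-12 libraries (SD, n = 2 each), a log2 difference of -0.14 (SE 0.04, edgeR adjusted p = 0.0115). This call was lost without control replicate 1 (adjusted p = 0.0951), without IL-12 replicate 1 (0.078) and with DESeq2 without independent filtering (0.0563). Ezh2 and Tubb3 did not pass, with log2 fold changes of -0.08 and 0.27, and Dcx had 0 counts. Of 7 reported targets of group F, 4 were tested and 1 was higher. This was Efnb2, the ephrin of arterial endothelium, whose means were 242 ± 0.178 and 306 ± 11.5 CPM (SD, n = 2 each), a log2 difference of 0.34 (SE 0.04, edgeR adjusted p = 6.5e-07). Cldn5 and Prox1 of this list had 0 counts, as had Sox7 and Sox17 of the group itself.

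Of 18 cofactors and carriers of SOX proteins, 15 were tested, 3 were higher and 4 lower, against 16.1% and 14.4% of all genes tested. The median log2 fold change of the list was 0.02. Xpo4 and Kpnb1, which are known to carry SOX proteins through the nuclear pore, were higher, by 0.53 (SE 0.06, edgeR adjusted p = 9.54e-07) and 0.26 (SE 0.03, edgeR adjusted p = 1.83e-06) on the log2 scale. Tcf7, an HMG-box factor of the Wnt pathway, was also higher, from 6.48 ± 0.578 to 11.03 ± 1.06 CPM (SD, n = 2 each), a log2 difference of 0.77 (SE 0.14, edgeR adjusted p = 0.000299). Its relative Tcf7l2 was lower, by -0.40 on the log2 scale (SE 0.06, edgeR adjusted p = 2.69e-05). Ctbp2, a corepressor that Sox6 recruits, differed by -0.28 (SE 0.04, edgeR adjusted p = 8.06e-05). The acetyltransferase gene Ep300 was lower by 0.14 on the log2 scale, a call (edgeR adjusted p = 0.0221) that was lost with DESeq2 (0.0785), without control replicate 1 (0.351) and without either IL-12 replicate (0.197 and 0.0696).

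A further list holds 16 genes of TGF-β, FGF, Notch and YAP signalling, which are known to act on Sox4 or Sox9 expression. All 16 were tested, and 4 were higher and 6 lower, against 16.1% and 14.4% of all genes tested. The median log2 fold change of the list was -0.06. The smallest p-values were those of Fgfr2 and Fgfr3, receptors for fibroblast growth factors, which fell by 0.57 and 0.64 on the log2 scale (edgeR adjusted p = 1.32e-09 and 3.09e-08). Fgfr2 averaged 301 ± 0.396 CPM without and 202 ± 8.91 CPM with IL-12 (SD, n = 2 each). The deposited Fgfr2 model spans 2961 kb and takes in Ctbp2 and many other genes, so the division of reads between Fgfr2 and Ctbp2 is uncertain. The other FGF genes that passed went the other way. Fgfr1, a further receptor, was higher by 0.29 on the log2 scale (SE 0.06, edgeR adjusted p = 0.000422). Fgf2, a ligand of these receptors and the only gene of the list past the 2-fold limit, had 27 and 18 counts in the control libraries against 63 and 58 after IL-12, or a log2 difference of 1.42 (SE 0.28, edgeR adjusted p = 0.000737). Fgf2 overlaps Nudt6 on the opposite strand, which had 181 counts over the 4 libraries against its own 166, so its value is uncertain. The Notch receptors Notch1 and Notch2 each had a log2 fold change of -0.29, while Rbpj, the DNA-binding factor of the same pathway, had one of 0.46 (edgeR adjusted p = 1.42e-05, 1.26e-06 and 5.37e-08). Smad3, which carries the TGF-β signal, had a log2 fold change of -0.24 (SE 0.04, edgeR adjusted p = 4.52e-05). The genes of TGF-β ligands did not move together. Tgfb1 was higher, by 0.33 on the log2 scale (SE 0.08, edgeR adjusted p = 0.00544). That call was lost with DESeq2 without independent filtering (adjusted p = 0.0576). Tgfb2 had a log2 fold change of -0.19 (SE 0.05, edgeR adjusted p = 0.00597). Tgfb3, Smad2, Smad4 and the receptor genes Tgfbr1 and Tgfbr2 did not pass.

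The authors' table marks 30 further genes as HMG-box factors outside the SOX family. Of these, 24 were tested, and 4 were higher and 6 lower, against 16.1% and 14.4% of all genes tested. The median log2 fold change of the 24 was 0.03, and 0 passed the 2-fold limit in edgeR's quasi-likelihood test. Cic, a repressor of growth factor response genes, averaged 281 ± 5.95 CPM without and 207.5 ± 2.31 CPM with IL-12 (SD, n = 2 each), a log2 difference of -0.44 (SE 0.04, edgeR adjusted p = 2.16e-08). Bbx and Hbp1 had log2 fold changes of -0.47 and -0.44 (edgeR adjusted p = 1.95e-06 and 0.000295). Hbp1 overlaps Cog5 on the opposite strand, and the use of strand is not stated, so its value is uncertain. The 4 higher genes were Tcf7, Ubtf, Tfam and Ssrp1, with log2 fold changes of 0.77, 0.17, 0.18 and 0.11. The calls of Tfam and Ssrp1 were lost with total counts only.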

How the data were processed

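Counts of 4 MPC5 libraries were analysed, grouped by the labels. The authors deposited raw counts per gene and FPKM values. Each FPKM value equals the count per kilobase, relative to total counts, multiplied by 1 factor per library (0.985, 0.9889, 1.017 and 1.016), so it adds nothing to the counts. Per the labels, HISAT2 and StringTie were used. The counting program, the use of strand and versions are not given in the sources used here. The labels name the build mm9, but the deposited coordinates equal those of GENCODE M21 (GRCm38) for 98.3% of the 54409 shared genes and for all 9 members, so GRCm38 is used.

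Genes were kept by filterByExpr (minimum 10 counts, 15 in total), which left 14095, and scaled by TMM (factors 0.985 to 1.02). edgeR 4.0.16 in R 4.3.3 compared the groups (quasi-likelihood test), with p-values adjusted over these genes by the Benjamini-Hochberg method. The SE is the size of the log2 fold change over the root of F. With 2 libraries per group no exact permutation test of a single gene could reach 0.05, and the p-values depend on edgeR's variance model. The fits were tested on simulated counts. Replicate numbers are shared between groups but mark no stated pairing, so no block was used.

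Members, lists and motifs were chosen with earlier results of these data known. Named with values are the members, other SOX genes, up to 6 genes of each list that passed with the smallest p-values, and the 3 nearest to Sox5. Other list genes, the marker genes and the HMG-box genes, with Fgfr1, Fgf2, Tgfb1 and Tgfb2, were named after their values were seen. Some podocyte markers are not reported here. Alternatives were other scalings (DESeq2's size factors, total counts, upper quartile), the DESeq2 1.42.0 Wald test with and without independent filtering, no filter or at least 10 counts in every library, the replicate block, each library left out, and limma 3.58.1 on log2(FPKM + 0.1).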

Additional observations from a re-analysis of the deposited data

How the results depend on the processing

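Under the alternatives that used all 4 libraries, 1 of the tested members other than Sox5 was higher, 2 were lower and 1 passed the 2-fold limit. The tested members were not always the same 6. Sox13 was not tested when every library had to have at least 10 counts, and Sox18 was tested without the filter. Sox4, Sox6 and Sox11 stayed past the threshold in each alternative that used all 4 libraries. They kept their direction in all 13 alternatives, with log2 fold changes from -0.36 to -0.30, from -1.56 to -1.21 and from 0.27 to 0.42. Sox9 and Sox12 stayed short of it, from 0.12 to 0.51 and from -0.19 to -0.11. Sox5 was at -1.75 without IL-12 replicate 1 and at -2.52 without IL-12 replicate 2, so its size rests on few counts. With limma on log2(FPKM + 0.1) it was -0.87, since a pseudocount of 0.1 is close to its level of 0.144 FPKM. Sox13 ranged from -0.52 to 0.64 as libraries were left out, with 0.64 without control replicate 2, and was 0.01 on the FPKM scale, without a call in any of these.

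Over all genes, the DESeq2 Wald test called 1492 higher and 1213 lower, with 103 over 2-fold. Without independent filtering it called 1456, 1175 and 125. On the FPKM scale 1277 genes were lower and 141 passed the 2-fold limit. Leaving out 1 library at a time gave 1404 to 2010 higher, 1124 to 1712 lower and 144 to 254 over 2-fold, with the lowest values without IL-12 replicate 1. With total counts only, 40.5% of the called genes were higher, against 52.8% with TMM. With the replicate block 2272 genes were higher, 2069 lower and 241 over 2-fold, and no call on a SOX gene changed. Same-numbered libraries did not deviate together across genes (correlation -0.0267). Levels near 0.149 to 0.163 CPM cannot show a difference, which covers Sox7 and Sox18.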

Other observations

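Sox5 and Sox6 are the members with the largest spans on the chromosome, and protein-coding genes were grouped by span after this had been seen. Of the 85 tested genes over 500 kb, 30.6% were lower and 12.9% were higher in the IL-12 treatment group by edgeR's quasi-likelihood test. These 85 include Sox5 and Sox6 themselves, and Fgfr2, whose deposited model takes in many other genes. Of the 2833 tested genes under 10 kb, 11.5% were lower and 19.2% were higher. Genes from 10 to 100 kb (16.4% lower, 18.3% higher) and from 100 to 500 kb (24.4% lower, 16.5% higher) lay between them. The medians differed little, at -0.04 over 500 kb and 0.03 under 10 kb on the log2 scale, against -2.10 for Sox5 and -1.43 for Sox6. The part of gene span in the values of these members was not tested.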
